A study of Mus musculus with 14 samples.

Results

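Sca-1 is a small surface protein anchored in the cell membrane and encoded by *Ly6a* in the mouse, and its level on the cell surface was used to sort the cells of the proximal prostatic ducts, the part of the ducts nearest the urethra. The comparison described here sets the brightest fraction, Sca-1Hi, which the study treats as its adult stem cell fraction, against the cells that lacked the antigen, Sca-1Neg, which it treats as the most differentiated. Its members are the 3 samples labelled Sca-1Hi and the 4 labelled Sca-1Neg, taken by their labels, 7 of the 14 samples of the series. Both came from normal prostates of adult male C57BL mice (C57BL/6 in the study's methods) aged 6 to 8 weeks, with no treatment or engineered allele named in the labels, and the labels set them apart by the sorting gate alone. The other 7 samples are the 4 of the intermediate fraction Sca-1Lo, from the same ducts, and the 3 of the urogenital sinus epithelium (UGE) of embryos at day 16. For each adult sample the RNA of 10000 to 50000 sorted cells was hybridised to a separate Affymetrix array, while no sort is stated for UGE. The methods name Sca-1 as the only antigen of the gate, and no step that removes blood, vessel or stromal cells.

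Prostatic ducts are lined by a basal layer, which carries keratins 5 and 14 and the transcription factor p63 and grips the basement membrane, and by a luminal layer, which carries keratins 8 and 18 and secretes the seminal proteins. The luminal cells of the proximal ducts differ from the secretory cells of the distal gland and express keratin 4 and Psca. Around the epithelium lie smooth muscle, fibroblasts, vessels, nerves and resident leukocytes. As background, Sca-1 in the mouse is found on basal and proximal luminal prostate cells and also on vessel endothelium, on many fibroblasts and on part of the blood cells. For this reason the genes are given by cell type, with epithelial, endothelial, stromal and blood-cell lists kept apart.

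*Ly6a*, the gene of the sorted antigen, read 9358, 10253 and 10878 on the Sca-1Hi arrays and 856, 620.1, 505 and 342 on the Sca-1Neg arrays, in units of the deposited PLIER signal (a model-based linear estimate of probe set brightness). The groups did not overlap, with a log2 difference of 4.20 ± 0.38 (SE), adjusted p = 5.1e-05. On the Sca-1Lo arrays it read 5820.2, 3129.5, 8348 and 8505, between the other adult fractions on every array. All p-values of genes are from limma (linear models with a moderated variance), adjusted by Benjamini and Hochberg over 41031 probe sets. Nothing in the labels ties an array to an animal, so that these p-values measure the spread between arrays only. Across the 7 arrays the upper quartile of brightness lay between 233 and 363. The ratio of 3′ to 5′ control probes for *Gapdh*, a measure of how far the labelled RNA was shortened, was 3.07 to 3.48 on the log2 scale in Sca-1Hi and 1.66 to 2.75 in Sca-1Neg. That for *Actb* overlapped, at 1.59 to 2.77 and 1.17 to 2.11, and the part of either in the results was not tested.

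Each gene is represented by its brightest probe set and is called higher or lower where the adjusted p was under 0.05 and the log2 difference exceeded 0.81, the fold minimum of the study's methods. Of 17175 genes, 1053 were higher in Sca-1Hi (6.13%) and 894 were lower (5.21%). Every Sca-1Hi array lay above every Sca-1Neg array for 1017 of the higher genes and below for 806 of the lower ones. Over all genes tested, 12.3% lay wholly above and 8.79% wholly below. The median log2 difference of all genes was 0.03. Leaving out 1 array at a time moved the counts to between 485 (without Sca-1Hi replicate 2) and 1385 (without Sca-1Neg replicate 3) higher genes. The lower genes then numbered from 300 (without Sca-1Hi replicate 2) to 1117 (without Sca-1Neg replicate 3). They fell to 590 higher and 572 lower without Sca-1Hi replicate 3, and to 558 lower without Sca-1Neg replicate 1. The brightest probe set of *Clca1*, *Lama3*, *Ivl*, *Shh*, *Rarg*, *Reln*, *Tgfbr1*, *Fzd6*, *Elovl6*, *Fdps*, *Fbln2*, *Tpsb2* and *Itgb6*, named in the following, was the sole one of several for its gene to be called. In all, 724 of the 1947 called genes were called whichever array was left out.

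The 4 compartments are taken first. Of the epithelial genes tested, 38 of 99 rose and 3 fell, and of the endothelial genes 37 of 43 rose and 1 fell. Of the stromal genes 1 of 54 rose and 14 fell, and of the blood-cell genes 1 of 102 rose and 37 fell. The median log2 difference was 0.74 for the epithelial, 3.46 for the endothelial, -0.73 for the stromal and -1.29 for the blood-cell genes. A sorted fraction is a mixture, and fewer cells of a type and less of its RNA per cell cannot be told apart in such data. The lists together hold 77 of the 1053 higher genes and 55 of the 894 lower genes. Without Sca-1Hi replicate 2, 23 epithelial genes were called higher, 4 stromal genes lower and 18 blood-cell genes lower. The blood-cell genes called lower were also 20 without Sca-1Hi replicate 3, 20 without Sca-1Neg replicate 1 and 24 without Sca-1Neg replicate 2.

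**Figure D1:**
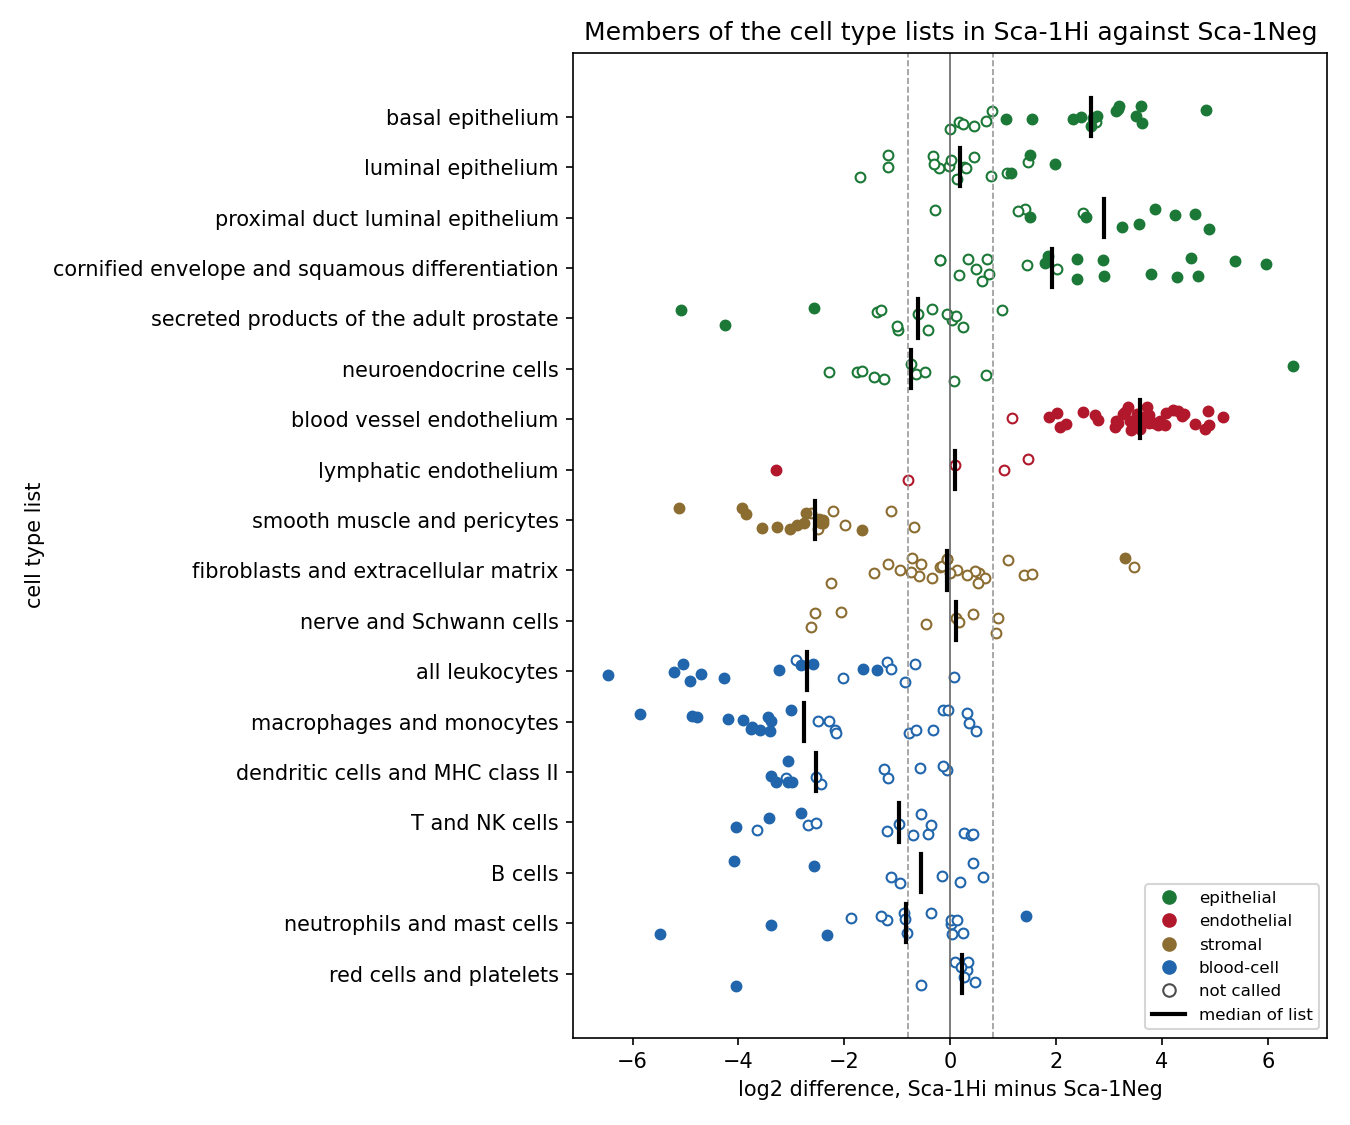
Log2 difference of each gene (Sca-1Hi minus Sca-1Neg, horizontal axis) in the 18 cell type lists (vertical axis), with filled points for called genes, open points for the others, a black bar at each list's median and dashed lines at the fold minimum. The vessel list lies wholly to the right, the leukocyte, macrophage and smooth muscle lists mostly to the left, and the epithelial lists divide between basal and proximal genes on the right and secreted products, whose median lies left of 0.

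The genes that rose most were led by *Grp*, which encodes gastrin-releasing peptide, a neuropeptide. It read 2457, 2657 and 3284 in Sca-1Hi and 37.6, 22.3, 36.5 and 30.9 in Sca-1Neg, a log2 difference of 6.48 ± 0.54 (SE), adjusted p = 3.3e-05. It stood alone among the 11 neuroendocrine genes tested: *Chga*, the granule protein chromogranin A, was at 15.02, 21.6 and 4.33 against 26.1, 47.0, 27.9 and 62.0 and *Syp*, the vesicle protein synaptophysin, at 54.9, 38.0 and 46.7 against 88.8, 93.3, 71.4 and 59.0, and neither was called. *Dapl1*, which encodes a protein found in stratified epithelia, was next, at 2220.2, 2679 and 3493 in Sca-1Hi and 38.5, 29.2, 52.7 and 41.4 in Sca-1Neg (a log2 difference of 6.12 ± 0.39 (SE), adjusted p = 1.1e-05). Others among the strongest were *Grhl3*, a transcription factor of the epidermal barrier (at least 7.41-fold higher), *Duoxa1*, the maturation factor of a hydrogen peroxide forming oxidase (at least 23.3-fold), and *Clca1*, a secreted regulator of chloride channels (at least 25.3-fold), each bounded because Sca-1Neg lay at the signal floor of 20. The ranking used log2 differences that count signals under this floor, so a bound can be smaller than the change of genes ranked lower. *Anxa8*, an annexin, rose by 4.96 on the log2 scale, and *Gsdmc2*, a gasdermin, by 5.31. *Adgrl4*, an adhesion receptor of endothelial cells that is in none of the lists, rose by 4.80 ± 0.39 (adjusted p = 3.1e-05).

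Among the genes that fell most was *Ptprc*, which encodes the leukocyte common antigen CD45. It read 1424, 2619, 113 and 627 in Sca-1Neg and 12.3, 14.6 and 2.92 in Sca-1Hi, where every array lay under the floor, and was at least 35.8-fold lower in Sca-1Hi (adjusted p = 0.0005). The others, ranked in the same way before bounds, were of more than one kind. *Ms4a4b*, a membrane protein of T cells, was at least 17.9-fold lower, and *Ltb*, the lymphocyte cytokine lymphotoxin beta, at least 7.69-fold. *Rgs4*, which dampens G protein signalling and is found in pericytes, fell from 2486, 1596, 593 and 5419 to 69.7, 11.6 and 60.4, and *Trpc6*, a cation channel of smooth muscle, was at least 2.43-fold lower. *Prol1*, which encodes a secreted proline-rich protein of glands, read 414, 147, 824 and 1706 in Sca-1Neg and 16.3, 8.73 and 17.1 in Sca-1Hi, at least 27.1-fold lower.

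Basal epithelial genes were higher in Sca-1Hi. Of 21 tested, 14 rose and 0 fell, and the median log2 difference was 2.65, or 2.47 when dim genes were entered at their bound. *Krt5*, the basal keratin, read 5874, 8478 and 9488 in Sca-1Hi and 382, 203, 2008 and 1069.8 in Sca-1Neg, a log2 difference of 3.61 ± 0.65 (SE), adjusted p = 0.0037. *Krt15*, a keratin of basal cells in stratified epithelia, read 7577, 9211 and 9899 against 712, 429, 2696 and 1079, a log2 difference of 3.19 ± 0.49 (SE), adjusted p = 0.0015. In both genes the groups did not overlap, and Sca-1Neg replicates 3 and 4 were the highest of their group. *Trp63*, which encodes the basal cell transcription factor p63, read 888, 2201 and 1839 in Sca-1Hi and 141, 104, 909 and 440.4 in Sca-1Neg, so that Sca-1Neg replicate 3 exceeded the lowest Sca-1Hi array (a log2 difference of 2.47 ± 0.74 (SE), adjusted p = 0.046). *Krt14*, the partner of keratin 5, was called as narrowly, at 833, 1795 and 1334 against 105, 48.8, 795 and 395 (a log2 difference of 2.65 ± 0.80 (SE), adjusted p = 0.047). Both calls held in only 2 of the 7 fits that left out 1 array, with adjusted p-values of up to 0.19 and 0.19.

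The basal genes that tie the cell to the basement membrane were among those that rose. *Col17a1*, a transmembrane collagen of the hemidesmosome, read 518, 1234 and 1289 in Sca-1Hi and 47.9, 33.2, 193 and 149.9 in Sca-1Neg (a log2 difference of 3.51 ± 0.67 (SE), adjusted p = 0.0051). *Itgb4*, the integrin beta 4 chain of the same junction, read 635, 2158 and 1576 against 132, 107, 159.9 and 185 (a log2 difference of 3.18 ± 0.52 (SE), adjusted p = 0.0021), and *Lama3*, a chain of laminin 332, differed by 3.12 ± 0.63 (adjusted p = 0.0069). Of 11 genes of hemidesmosomes and laminin receptors 6 rose and none fell, and 3 of these calls held without Sca-1Hi replicate 2. *Dst*, which links the hemidesmosome to keratin filaments and is used by muscle and nerve as well, was at 638, 1877 and 1320.3 against 874, 719, 942 and 3171 and was not called. Other basal genes that rose were *Lgals7*, the epithelial lectin galectin 7 (3.63 ± 0.41), *Jag2*, a Notch ligand (2.69 ± 0.59), *Snai2*, a repressor of basal cells (2.33 ± 0.64), and *Sfn*, the epithelial protein 14-3-3 sigma (at least 9.66-fold). Of the 14 basal genes that rose, 7 were called whichever array was left out, and the others were all lost without Sca-1Hi replicate 2. The mean log2 signal of the whole list was 9.32 to 10.06 in Sca-1Hi, 6.65 to 8.66 in Sca-1Neg and 9.11 to 9.49 in UGE.

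Genes of proximal duct luminal cells stood out in Sca-1Hi. Of 12 tested 8 rose and none fell, with a median log2 difference of 2.91. *Krt4*, the keratin that marks these cells, read 9329, 9168 and 9487 in Sca-1Hi and 451, 364, 318 and 187 in Sca-1Neg, a log2 difference of 4.89 ± 0.36 (SE), adjusted p = 1.7e-05. Its Sca-1Hi arrays agreed closely, and its UGE arrays read on both sides of them (7097, 11659.5 and 9895). *Psca*, prostate stem cell antigen, a surface protein of the Ly6 family, read 2496, 1166 and 672 in Sca-1Hi and 147, 129, 46.2 and 7.55 in Sca-1Neg (a log2 difference of 4.62 ± 0.88 (SE), adjusted p = 0.0053). *Wfdc2*, a secreted protease inhibitor of ductal epithelia, read 3840.2, 3025 and 2302 against 176, 192, 254 and 71.1 (a log2 difference of 4.25 ± 0.42 (SE), adjusted p = 7.1e-05). In these 3 genes every Sca-1Hi array lay above every Sca-1Neg array. *Cyp2f2*, a monooxygenase of airway and ductal epithelium, differed by 3.24 ± 0.49, *Krt7*, a keratin of simple ducts, by 3.56 ± 0.32, and *Clu*, the secreted chaperone clusterin, by 1.51 ± 0.35. *Cldn4*, a tight junction claudin, was at 752, 2289 and 1540.3 against 422, 326, 1524 and 517, overlapping and not called. Of the 8 calls 7 held whichever array was left out.

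Cornified envelope and squamous differentiation genes were raised as well, 12 of 22 with none lower and a median of 1.93 (1.91 with bounds). *Ivl*, which encodes involucrin, a cross-linked protein of the envelope, read 328, 224 and 232 in Sca-1Hi and 8.16, 22.8, 3.03 and 2.63 in Sca-1Neg, at least 12.5-fold higher (adjusted p = 0.00054). *Sprr1a*, a small proline-rich envelope protein, read 2499, 2205 and 2325 against 119.7, 89.8, 179.7 and 36.1 (a log2 difference of 4.68 ± 0.46 (SE), adjusted p = 7.1e-05). *Scel*, the envelope precursor sciellin, read 586, 735 and 696 against 54.2, 27.0, 35.7 and 12.7 (a log2 difference of 4.55 ± 0.44 (SE), adjusted p = 7.1e-05). *Nccrp1*, an F-box-like protein, rose at least 13.0-fold, and *Krt13*, a suprabasal keratin of inner linings, at least 7.74-fold. *Calml3*, a calmodulin-like protein of stratified epithelium, read 2935, 2575 and 4458 against 147, 159.9, 212 and 156 (log2 difference 4.27, adjusted p = 1.2e-05). Not every member was called. *Tgm1*, the transglutaminase that cross-links the envelope, was at 36.1, 33.3 and 37.9 against 25.9, 31.8, 87.1 and 37.8, and *Krt16* at 34.04, 35.7 and 35.6 against 52.7, 29.7, 16.9 and 36.9, and neither was called. Of the 12 calls 6 held whichever array was left out, and 7 without Sca-1Hi replicate 2.

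Of 18 general luminal genes tested 3 rose and none fell, beside 6.13% and 5.21% of all genes, and the median was 0.19. *Krt8*, the luminal keratin, read 8729.5, 8607 and 7476 in Sca-1Hi and 3654, 2239, 7239 and 3275 in Sca-1Neg (a log2 difference of 1.14 ± 0.34 (SE), adjusted p = 0.043), a call that held in 1 of the 7 fits that left out 1 array. *Krt18*, its partner, read 3751, 3781 and 2315 against 3155, 1804, 10301 and 3261 and was not called (log2 difference -0.22, adjusted p = 0.8). Sca-1Neg replicate 3 alone read above 10000 for *Krt18* and stood above every other array of both fractions. The same array led for *Hoxb13*, a homeobox gene of the prostate (1469, 1398 and 1087 against 789, 705, 8296 and 1576, not called). *Elf3*, an epithelial transcription factor, was the luminal gene that rose most, at 1469, 1552 and 1282 against 681, 298, 395 and 221 (a log2 difference of 1.97 ± 0.39 (SE), adjusted p = 0.0063). *Cdh1* (E-cadherin), *Epcam* and *Cd24a*, which all epithelial cells express, had log2 differences of 1.06, 0.78 and -0.03 and were not called.

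The secreted products of the adult prostate were abundant in both fractions. *Pbsn*, which encodes probasin, a secretory protein under androgen control, read 14173, 8701 and 12407 in Sca-1Hi and 9777, 8798, 15332 and 12056 in Sca-1Neg (log2 difference 0.04, adjusted p = 0.97). *Msmb*, a major seminal protein, read 14201, 8124 and 13979.7 against 9093, 7583, 16029 and 12568 (log2 difference 0.11, adjusted p = 0.9). The UGE arrays were at 8.79, 13.5 and 3.46 for *Pbsn*, so that the adult fractions shared a signal that the fetal epithelium did not have. The genes of the seminal vesicle proteins differed among themselves. *Svs2* read 3223, 572 and 1263 in Sca-1Hi and 8746, 6256, 6761 and 10260.2 in Sca-1Neg (a log2 difference of -2.57 ± 0.51 (SE), adjusted p = 0.0065), *Svs6* read 299.6, 79.8 and 209 against 4017, 2890.3, 2184 and 4388 (a log2 difference of -4.25 ± 0.84 (SE), adjusted p = 0.0063), and *Svs3a* was at least 17.1-fold lower in Sca-1Hi. *Svs4* and *Svs5*, of the same family, had log2 differences of -0.34 and -0.61 and were not called. In all 3 of 15 products fell and none rose (median -0.61), and these calls held whichever array was left out. *Apof* and *Azgp1*, secreted lipid-binding proteins, read 1615, 1381, 20629.7 and 1872 and 1498, 1201, 8875 and 1959 in Sca-1Neg, where replicate 3 was again far above the rest. None of the 6 urothelium genes was called, and *Upk2*, a plaque protein of the urothelium, read 429.7, 265 and 302 against 273, 257, 244 and 194.

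**Figure D2:**
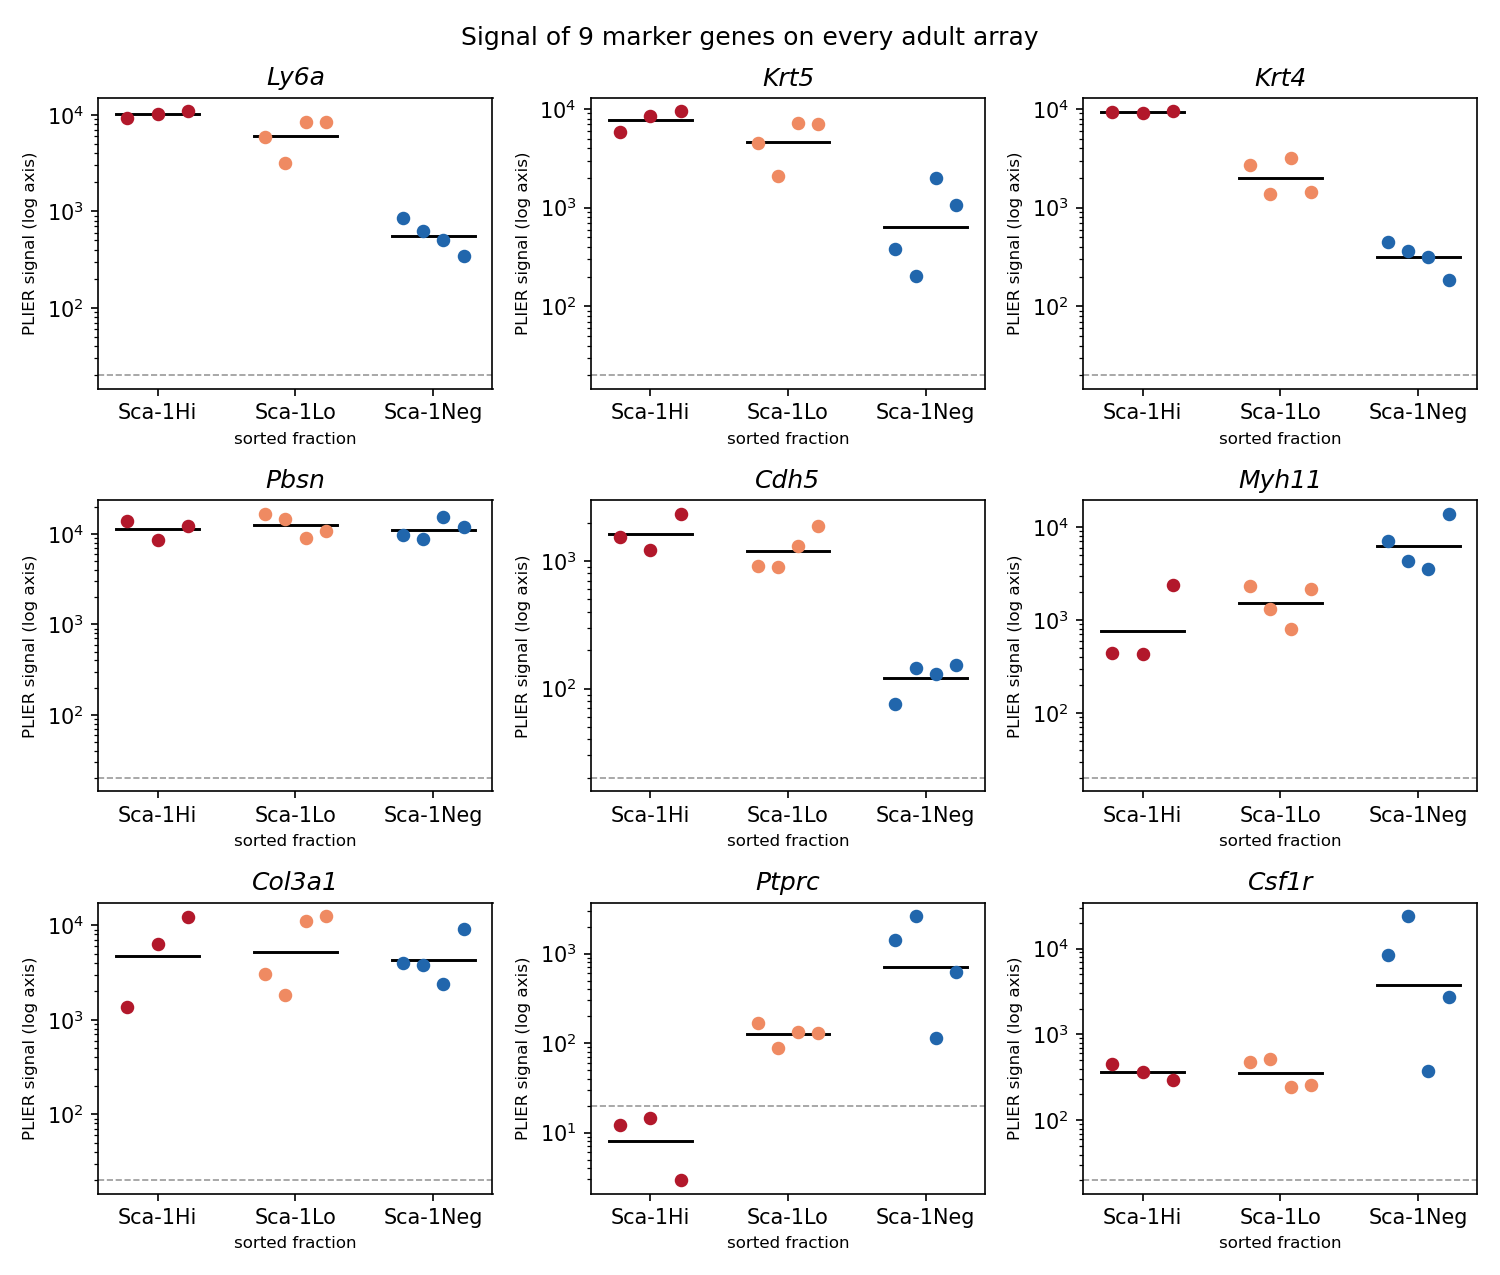
PLIER signal (vertical log axis, each panel on its own range) of 9 genes on the 11 adult arrays, with a point for each array, a bar at the geometric mean of each fraction and a dashed line at the signal floor of 20. Krt4 and Cdh5 separate Sca-1Hi from Sca-1Neg without overlap, Pbsn and Col3a1 overlap between them, and Ptprc lies under the floor on all 3 Sca-1Hi arrays.

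Blood vessel endothelium had the largest share of called genes among the lists. Of 38 genes 37 rose in Sca-1Hi and none fell, and the median log2 difference was 3.59 (3.52 with bounds). *Cdh5*, the endothelial cadherin, read 1536, 1221 and 2351 in Sca-1Hi and 75.3, 146, 131 and 152 in Sca-1Neg (a log2 difference of 3.75 ± 0.60 (SE), adjusted p = 0.0018). *Kdr*, the main receptor for VEGF, read 1337, 1315 and 2579 against 123, 205, 164 and 304 (a log2 difference of 3.14 ± 0.51 (SE), adjusted p = 0.002). *Tek*, the angiopoietin receptor, read 1012, 1315 and 2005 against 52.5, 108, 57.2 and 98.3 (a log2 difference of 4.21 ± 0.50 (SE), adjusted p = 0.00032). In each the lowest Sca-1Hi array was several times above the highest Sca-1Neg array. *Pecam1*, the junction protein CD31, was dim throughout, at 78.7, 72.7 and 91.8 against 7.31, 13.6, 8.20 and 3.02, and was at least 4.04-fold higher (adjusted p = 0.00025).

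The strongest vessel genes were *Aplnr*, the apelin receptor (5.15 ± 0.80), *Sox17*, a transcription factor of arteries and of some epithelia (4.88 ± 0.74), and *Cldn5*, the claudin of endothelial tight junctions (4.81 ± 0.51). *Sox17* read 2800.2, 2482 and 3572 in Sca-1Hi and 99.9, 99.2, 80.6 and 119 in Sca-1Neg. *Esm1*, a secreted proteoglycan of endothelial tip cells, was at least 3.52-fold higher, and *Erg*, an ETS family factor of endothelium, at least 12.4-fold (adjusted p = 0.0032). *Cdh5* and *Erg* each have a second probe set on the array that was not called. Among the other vessel genes that rose, *Plvap*, which forms the diaphragms of fenestrae, differed by 3.59 ± 0.72 on the log2 scale. *Nos3*, endothelial nitric oxide synthase, differed by 3.17 ± 0.51, and *Vwf*, von Willebrand factor, by 3.46 ± 0.52. The gene that was not called was *Esam*, a junction protein also used by other vessel wall cells, at 1843, 2138 and 3475 against 972, 798, 555 and 3027, where Sca-1Neg replicate 4 was the highest of its group.

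Most of these calls did not rest on a single array. Of the 37, 35 held whichever array was left out. The mean log2 signal of the list was 9.57 to 10.20 in Sca-1Hi and 5.93 to 6.58 in Sca-1Neg, and the signals summed to 42508 to 69403 against 4074 to 9373. None of the defining genes *Pecam1*, *Cdh5*, *Kdr* and *Tek* was under the floor in Sca-1Hi. In Sca-1Lo the list stood at 8.59 to 9.74, and 34 of its genes were called higher there than in the same Sca-1Neg arrays, where 1.69% of all genes were called higher. In the lymphatic endothelium list, 1 of 5 genes was called, and it was lower. *Lyve1*, a hyaluronan receptor of lymphatics, was at 440.4, 767 and 783 against 104, 304, 143 and 625 and not called, *Prox1*, their defining factor, read 29.3, 24.7 and 16.3 against 26.6, 32.1, 22.4 and 10.98, around the floor in both fractions, and *Reln*, a secreted matrix protein of lymphatics and neurons, fell (33.4, 35.9 and 44.4 against 288, 1271, 49.5 and 1038, log2 difference -3.30, adjusted p = 0.023), a call that held in 2 of the 7 fits without 1 array.

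The genes of smooth muscle and pericytes were lower in Sca-1Hi. Of 20 tested 14 fell and none rose, with a median of -2.56. *Myh11*, smooth muscle myosin, read 439, 432 and 2356 in Sca-1Hi and 7107, 4333, 3563 and 13903 in Sca-1Neg (a log2 difference of -3.03 ± 0.75 (SE), adjusted p = 0.019). *Pln*, phospholamban, a regulator of the calcium pump, read 103, 53.6 and 103 against 3146, 2259, 1209 and 8144 (a log2 difference of -5.13 ± 0.82 (SE), adjusted p = 0.0019). *Cspg4*, the pericyte proteoglycan NG2, read 86.2, 105 and 124 against 850.1, 708, 554 and 6702 (a log2 difference of -3.56 ± 0.64 (SE), adjusted p = 0.0037), and *Rgs5*, a pericyte regulator of G proteins, 538, 197 and 541 against 4517, 3699, 2626 and 22391 (a log2 difference of -3.86 ± 0.84 (SE), adjusted p = 0.011). Sca-1Hi replicate 3 was the highest of its group for *Myh11*, and Sca-1Neg replicate 4 was the highest of its group for all 4. *Acta2*, smooth muscle actin, which myoepithelial and activated stromal cells share, was bright everywhere (5385, 6014 and 12128 against 11174, 10629.5, 12046 and 13283, log2 difference -0.68, adjusted p = 0.43) and not called. That holds for its brightest probe set only: of its 3 probe sets this was the 1 not called. The others were called lower, at log2 differences down to -3.04. The fall depended on the arrays more than that of the vessel genes: 4 of the 14 calls held whichever array was left out. Without Sca-1Hi replicate 2 only 4 genes were called lower, and 7 without Sca-1Hi replicate 1. Without Sca-1Neg replicate 1, and likewise without replicate 4, there were 9, while the median stayed between -3.28 and -2.17 over the 7 fits.

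Of 25 fibroblast and matrix genes 1 rose and none fell, a share close to the 6.13% and 5.21% of all genes, and the median was -0.06. *Col3a1*, a fibrillar collagen, read 1373, 6268 and 12139 in Sca-1Hi and 3990.2, 3828, 2407 and 9207 in Sca-1Neg (log2 difference 0.13, adjusted p = 0.94). *Dpt*, the matrix protein dermatopontin, read 251, 1691 and 4209 against 255, 318, 580.5 and 639 (log2 difference 1.54, adjusted p = 0.4). Within Sca-1Hi these genes spanned a wide range, lowest in replicate 1 and highest in replicate 3. *Pdgfra*, the receptor that marks fibroblasts, did so too, at 175, 421 and 2488. The gene called higher was *Fbln2*, fibulin 2, a basement membrane protein of vessels as well as stroma, at 346, 539 and 916 against 24.5, 35.1, 92.6 and 128 (a log2 difference of 3.30 ± 0.76 (SE), adjusted p = 0.014), a call that held in 5 of the 7 fits without 1 array. The mean log2 signal of the list, 7.80 to 10.89 in Sca-1Hi and 8.68 to 10.51 in Sca-1Neg, overlapped. None of the 9 nerve and Schwann cell genes was called. *Sox10*, the Schwann cell factor, read 123, 265, 52.4 and 12534 in Sca-1Neg against 98.5, 49.5 and 48.2 in Sca-1Hi, high on a single array, and *S100b*, a calcium-binding protein of glia, 115, 1108, 49.1 and 903 against 79.1, 58.1 and 61.0.

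Genes that all leukocytes express were lower in Sca-1Hi. Of 18 tested 11 fell and none rose, with a median of -2.71 (-2.53 with bounds). *Itgb2*, the leukocyte integrin beta 2 chain, read 51.8, 65.7 and 67.6 in Sca-1Hi and 3902, 5806, 339 and 1484 in Sca-1Neg (a log2 difference of -4.91 ± 0.69 (SE), adjusted p = 0.00091). *Laptm5*, a lysosomal protein of blood cells, read 62.0, 27.7 and 41.0 against 1501, 2562, 145 and 749.7 (a log2 difference of -4.28 ± 0.76 (SE), adjusted p = 0.0035). Of its 5 probe sets 2 were called lower and 0 higher, with log2 differences from -4.28 to -0.99, and the mean of all 5 was not called. *Coro1a*, a leukocyte actin regulator, was at least 23.2-fold lower and *Cd53*, a tetraspanin of leukocytes, at least 9.83-fold. The groups did not overlap in these genes, and Sca-1Neg replicates 1 and 2 were above replicates 3 and 4. In Sca-1Hi the defining gene *Ptprc* lay under the floor on every array, at 12.3, 14.6 and 2.92, while in Sca-1Lo it read 168, 87.7, 135 and 131. Of the 11 calls, 7 held whichever array was left out, and the others were lost without Sca-1Hi replicate 2.

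Macrophage genes had the same order of arrays. Of 24 tested 12 fell and none rose (median -2.76, -2.55 with bounds). *Csf1r*, the receptor that macrophages depend on, read 447, 365 and 294 in Sca-1Hi and 8437, 23762, 375 and 2724 in Sca-1Neg, so that Sca-1Neg replicate 3 lay inside the Sca-1Hi range (a log2 difference of -3.38 ± 0.97 (SE), adjusted p = 0.037). Its call held in 1 of the 7 fits without 1 array. *C1qb*, a chain of complement C1q, read 55.1, 14.6 and 13.5 against 1426, 3391, 88.2 and 326 (a log2 difference of -4.78 ± 0.97 (SE), adjusted p = 0.0071), and *Ctss*, a lysosomal protease of antigen-presenting cells, 179, 139.9 and 93.1 against 3627, 6213, 319 and 1453 (log2 difference -3.76, adjusted p = 0.0075). *Ccl3*, a chemokine of activated macrophages, fell from 24921, 31227, 1583 and 3421 to 125, 102 and 211 (a log2 difference of -5.85 ± 0.84 (SE), adjusted p = 0.001), and every Sca-1Neg array was above every Sca-1Hi array. *Adgre1*, the macrophage marker F4/80, was at 192, 948, 71.2 and 95.7 in Sca-1Neg against 132, 101 and 96.4 and was not called. The removal of Sca-1Hi replicate 2 left 5 of these calls.

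Lists of other blood cells had smaller shares called, beside 6.13% higher and 5.21% lower over all genes. Genes of dendritic cells and MHC class II counted 5 of 13 lower, among them *Cd74*, the invariant chain (270.2, 363 and 164 against 4703, 5584, 382 and 1960.3, log2 difference -3.06, adjusted p = 0.028). *H2-Aa*, an MHC class II chain, was not called by its brightest probe set (log2 difference -2.45, adjusted p = 0.068), while another of its 4 probe sets was called lower. The *Cd74* call held in 1 of the 7 fits without 1 array. In the T and NK cell list 3 of 15 fell, with *Klrd1*, an NK receptor chain, at least 14.1-fold lower, while *Gzma*, a granzyme, read 1763, 3348, 63.6 and 144 in Sca-1Neg against 56.0, 103 and 72.6 and was not called. In the B cell list 2 of 8 fell, with *Cd79b*, a chain of the B cell receptor, at least 4.10-fold lower. Neutrophil and mast cell genes were 3 lower and 1 higher of 16: *S100a9*, a neutrophil calcium-binding protein, was at least 10.05-fold lower, and *Tpsb2*, a mast cell tryptase, was 85.8, 101 and 62.5 against 30.2, 21.8, 37.4 and 34.1 (log2 difference 1.43, adjusted p = 0.0074). Of the 8 red cell and platelet genes *Alas2*, the first enzyme of heme synthesis in red cells, fell from 4561, 8846, 744 and 2582 to 128, 339 and 132 (log2 difference -4.05, adjusted p = 0.004), while *Hba-a1*, alpha globin, was not called (log2 difference 0.46, adjusted p = 0.29). Without Sca-1Hi replicate 2, 1 call was left in the MHC class II list, 1 in the T and NK cell list and 1 in the neutrophil and mast cell list, and without Sca-1Hi replicate 3 1 in the B cell list.

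**Figure D3:**
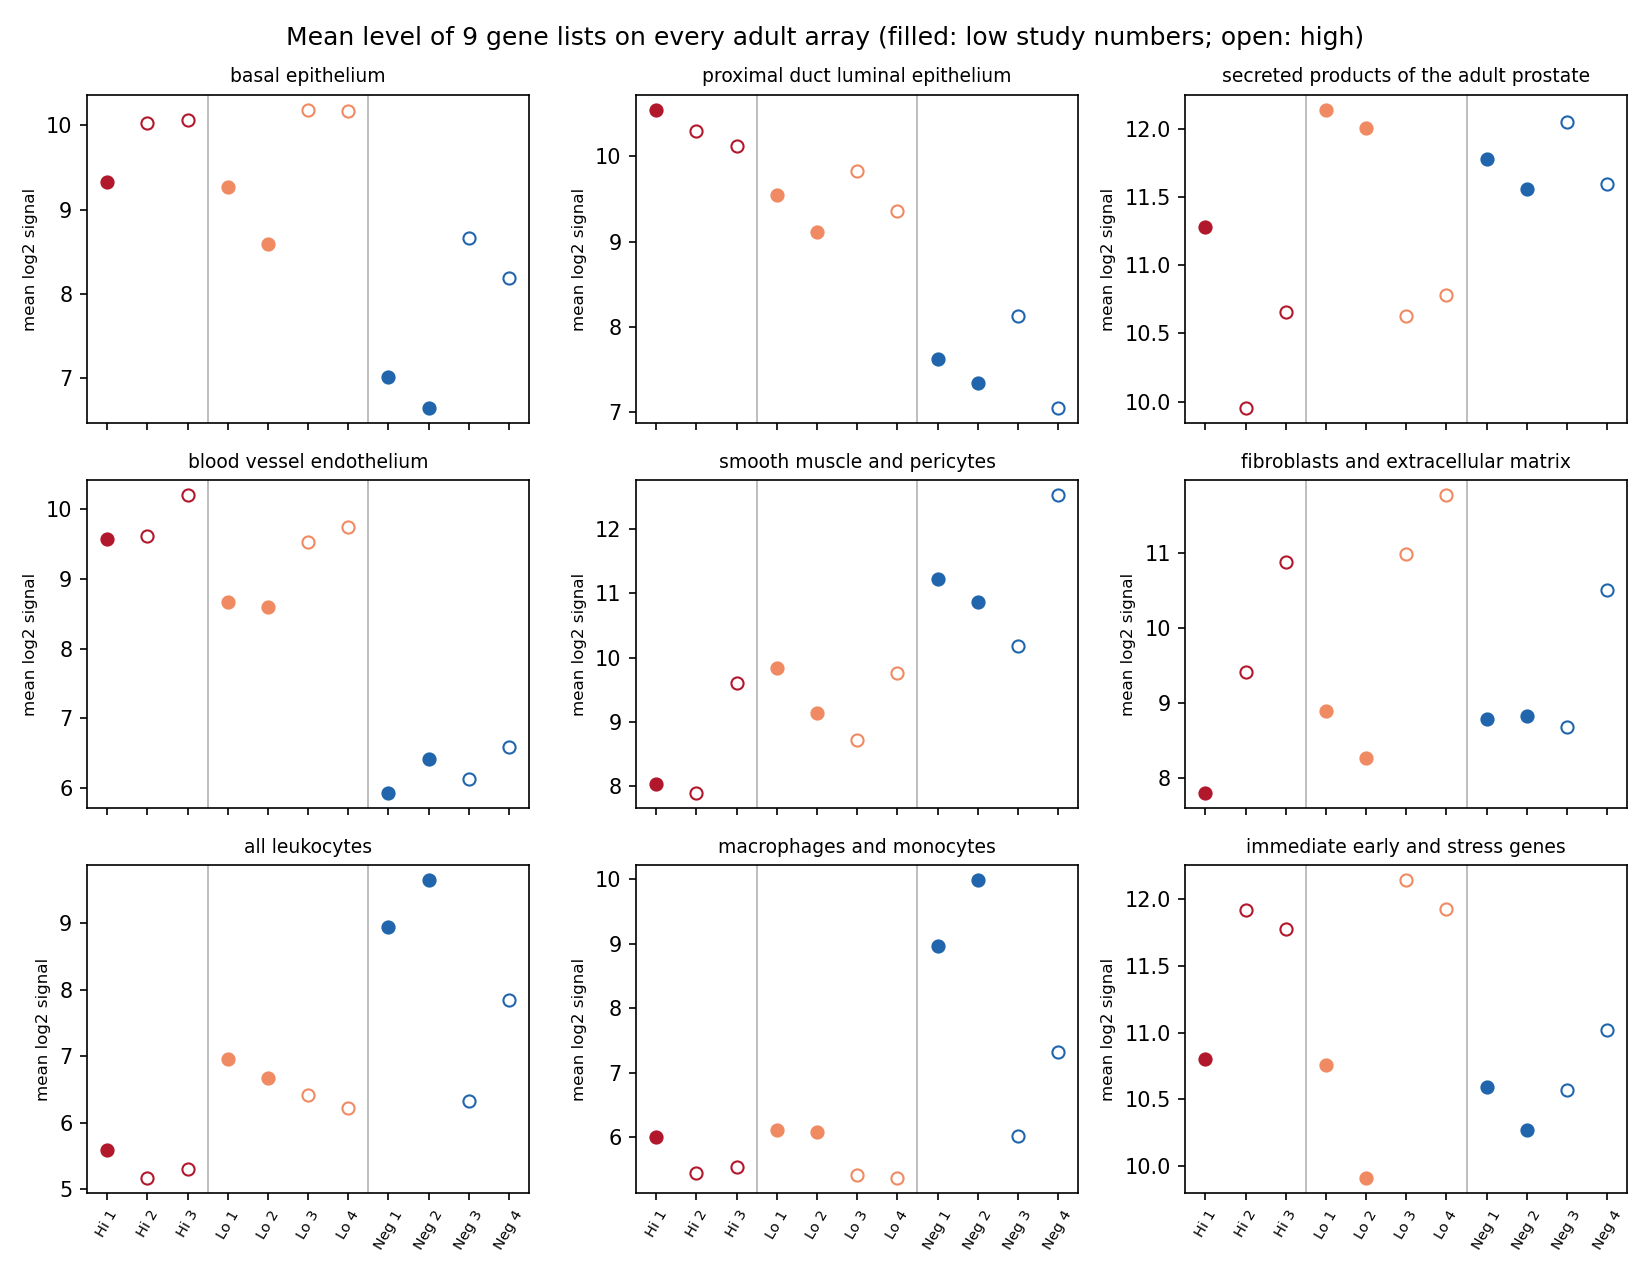
Mean log2 signal (vertical axis, each panel on its own range) of 9 lists on the 11 adult arrays (horizontal axis, by fraction and replicate), with filled points for arrays that carry study numbers 1 and 2 and open points for numbers 3 to 5. The vessel list separates Sca-1Hi from Sca-1Neg on every array, while leukocyte and macrophage lists are high in Sca-1Neg replicates 1 and 2, and fibroblast and immediate early lists vary as much within a fraction as between fractions.

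The arrays of a fraction differed among themselves in an ordered way. Column names of the study carry a number for each array, whose meaning is not stated, and Sca-1Hi replicate 1 and Sca-1Neg replicates 1 and 2 have the low numbers. The leukocyte list was at 8.94 and 9.65 in the Sca-1Neg replicates of low number and at 6.32 and 7.84 in those of high number, against 5.16 to 5.59 in Sca-1Hi. The basal list ran the other way in Sca-1Neg, at 7.02 and 6.65 against 8.66 and 8.19. The differences were therefore taken within the arrays of each set of numbers. In the low set Sca-1Hi is a single array and is assumed to vary like the other groups. The median of the blood vessel endothelium list was 3.44 in the low set and 3.66 in the high set, with 37 and 31 genes called. That of proximal duct luminal epithelium was 3.52 and 2.38, and that of basal epithelium 2.84 and 1.55. For all leukocytes the median was -3.47 in the low and -1.30 in the high set, with 11 and 1 called lower. For macrophages and monocytes the median was -4.43 in the low and -1.42 in the high set, with 16 and 3 genes called lower, and for smooth muscle and pericytes the calls numbered 18 and 1 at medians of -2.999 and -2.42. For fibroblasts and extracellular matrix the median was at -1.39 in the low set, with 10 called lower, and at 0.38 in the high set, with none lower.

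Signalling lists were examined next, ordered from ligands to targets. The counts in these and the later pathway lists stand beside 6.13% of all genes called higher and 5.21% called lower. In the Notch pathway, where a ligand on one cell activates a receptor on its neighbour, 6 of 15 genes rose and 4 fell. Among the ligands *Dll1* read 629, 866 and 1113 in Sca-1Hi and 111, 153, 176 and 129 in Sca-1Neg (a log2 difference of 2.60 ± 0.39 (SE), adjusted p = 0.0014) and *Jag2* differed by 2.69 ± 0.59, while *Jag1* was not called (log2 difference -0.52, adjusted p = 0.54). Among the receptors *Notch4*, which endothelial cells use, rose (321, 277 and 444 against 53.8, 53.2, 50.03 and 93.2, log2 difference 2.49, adjusted p = 0.0014), and *Notch3*, which pericytes use and the smooth muscle list also holds, fell (362, 401 and 388 against 2108, 1748, 1632 and 7742, log2 difference -2.77, adjusted p = 0.0071). Another of the 3 probe sets of *Notch4* had a log2 difference of -2.02 that was not called. The target genes divided: *Hes1* rose (log2 difference 1.22, adjusted p = 0.045), and *Hey2* (log2 difference -4.20, adjusted p = 0.0025), *Heyl* (log2 difference -3.04, adjusted p = 0.0055) and *Nrarp* (log2 difference -1.78, adjusted p = 0.036) fell. *Lfng*, which adds sugars to Notch receptors, rose from 32.5, 52.4, 52.5 and 29.7 to 421, 114 and 204 (log2 difference 2.41, adjusted p = 0.0039). Of the 10 calls 6 held whichever array was left out, the others being lost without Sca-1Hi replicate 2.

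Wnt genes were called in 3 of 24 cases upward and 1 downward, beside 6.13% and 5.21% of all genes. The downward count is near the share of all genes. *Wnt4*, a secreted ligand, read 1822, 3833 and 2538 in Sca-1Hi and 441, 249.6, 1042 and 437 in Sca-1Neg (a log2 difference of 2.46 ± 0.49 (SE), adjusted p = 0.0069), and *Wnt10a* was at least 4.15-fold higher. The receptor *Fzd6* rose (log2 difference 1.71, adjusted p = 0.0069), and *Fzd3* fell by its brightest probe set (log2 difference -1.20, adjusted p = 0.024), while another of its 5 probe sets was called higher, so that its direction is uncertain. *Axin2* and *Lef1*, which Wnt signals induce, had log2 differences of -0.18 and 1.17 and were not called. Of the hedgehog genes the ligands *Shh* (2956, 4923 and 5736 against 1232, 767, 1127 and 1073, log2 difference 2.08, adjusted p = 0.0067) and *Ihh* (log2 difference 0.98, adjusted p = 0.017) rose. *Hhip*, a membrane protein that binds these ligands, fell (log2 difference -3.09, adjusted p = 0.037), and the receptor *Ptch1* and the factor *Gli1*, targets of the pathway, were not called (-0.29 and -0.72). The list held 12 genes, and *Shh* was the 1 of its 3 calls that held whichever array was left out, while 3 of the 4 Wnt calls did.

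TGF-beta genes rose in 4 of 21 cases and fell in 2, beside 6.13% and 5.21% of all genes. Of the ligands *Tgfb3* fell (22.5, 45.4 and 149 against 447, 305, 232 and 1427, log2 difference -3.11, adjusted p = 0.017), and *Tgfb1* and *Tgfb2* were not called (0.82 and -0.51). *Tgfbr1*, the type I receptor, fell (log2 difference -1.04, adjusted p = 0.041), a call that held in 1 of the 7 fits without 1 array. Those that rose were *Eng* (log2 difference 2.08, adjusted p = 0.0055) and *Acvrl1* (log2 difference 2.502, adjusted p = 0.0037), endothelial co-receptor and receptor that the vessel list also holds, *Itgb6*, an epithelial integrin chain that activates the latent ligand (log2 difference 2.51, adjusted p = 0.017), and *Id1*, a target gene (log2 difference 1.26, adjusted p = 0.019). None of the 10 genes of the EGF receptor family was called, with *Egfr* at 156, 173 and 320.1 against 106, 124, 175 and 219. Of 16 retinoic acid genes 4 rose and 1 fell, beside the same shares of all genes. *Aldh1a7* (log2 difference 2.21, adjusted p = 0.022), *Dhrs3*, which reduces retinal (log2 difference 1.49, adjusted p = 0.037), *Cyp26b1*, which degrades retinoic acid (log2 difference 2.35, adjusted p = 0.0047), and the receptor *Rarg* (796, 875 and 1029 against 287, 279.6, 320.2 and 349, log2 difference 1.54, adjusted p = 0.0026) rose. *Aldh1a2*, a retinoic acid synthase found in stroma, fell (log2 difference -3.44, adjusted p = 0.013). Without Sca-1Hi replicate 2, 2 of the 6 TGF-beta calls and 2 of the 5 retinoic acid calls were left.

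Xenobiotic defence genes rose without a member that fell, 7 of 18. *Ahr*, the aryl hydrocarbon receptor, read 1793, 2856 and 2950.0 in Sca-1Hi and 427, 429, 629.6 and 585 in Sca-1Neg (a log2 difference of 2.28 ± 0.39 (SE), adjusted p = 0.0029), with no overlap. Its partner *Arnt* was not called (-0.11). *Gsto1*, a glutathione transferase, read 9315, 10719.8 and 10928 against 1498, 1135, 3320.4 and 1005 (a log2 difference of 2.74 ± 0.39 (SE), adjusted p = 0.00098), and *Aldh3a1*, an aldehyde dehydrogenase, 836, 738 and 1142 against 89.1, 78.8, 309 and 191 (log2 difference 2.64, adjusted p = 0.007). *Nqo1*, a common target of the receptor, was not called (log2 difference -0.64, adjusted p = 0.29). Of the ABC transporters, pumps that export drugs and lipids, 5 of 12 rose and none fell. *Abcb1a*, the drug efflux pump, which vessel endothelium also carries, read 1675, 2279 and 2433 against 90.3, 124, 128 and 119 (a log2 difference of 4.20 ± 0.39 (SE), adjusted p = 6.6e-05), while its paralog *Abcb1b* was not called (log2 difference -0.03, adjusted p = 0.98). *Abcg2*, the pump of the side population assay, rose (log2 difference 2.23, adjusted p = 0.014), a call that held in 5 of the 7 fits without 1 array. *Abcc4* read 1083, 1074 and 1072 against 199, 196, 603 and 192 (log2 difference 2.05, adjusted p = 0.0043), with Sca-1Neg replicate 3 apart from its group. Without Sca-1Hi replicate 3, 5 of the 7 xenobiotic calls were left, and without Sca-1Hi replicate 2, 2 of the 5 transporter calls. Of the Ly6 surface proteins other than the sorted antigen, *Ly6d* rose by 2.57 ± 0.45 (adjusted p = 0.0032), and 6 of 9 in the list rose with *Ly6a* counted, of which 4 held whichever array was left out.

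Of 20 cell division genes 1 rose and none fell, close to the 6.13% and 5.21% of all genes, and the median was -0.34. *Mki67*, the proliferation antigen, read 233, 125 and 302 in Sca-1Hi and 213, 233, 383 and 252 in Sca-1Neg (log2 difference -0.35, adjusted p = 0.56). *Top2a*, a topoisomerase of dividing cells, read 261, 107 and 297 against 218, 232, 309 and 301 (log2 difference -0.37, adjusted p = 0.55). On the UGE arrays *Mki67* read 2635, 3594 and 3858, above every adult array. The gene called was *Mcm6*, a subunit of the replication helicase (log2 difference 0.90, adjusted p = 0.046), and it was called in 0 of the 7 fits without 1 array. None of 13 cell cycle inhibitors and none of 21 immediate early and stress genes was called. The latter had a median log2 difference of 0.86 and stood higher on the Sca-1Hi arrays of high number, with *Atf3*, a stress-induced factor, at 3641, 14457 and 10295 in Sca-1Hi and 2980.2, 1724, 17601 and 12561 in Sca-1Lo against 2808, 1803, 4862 and 3182 in Sca-1Neg.

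Interferon response genes rose in 6 of 16 cases and fell in 1, beside 6.13% and 5.21% of all genes. *Oasl2* read 555, 613 and 589 in Sca-1Hi and 151, 172, 226 and 166 in Sca-1Neg (a log2 difference of 1.73 ± 0.34 (SE), adjusted p = 0.0058), and *Usp18*, which removes ISG15 from proteins, differed by 1.62 ± 0.34. *Mx1*, an antiviral GTPase of the same response, went the other way (63.3, 53.8 and 57.1 against 142, 117, 224 and 124, log2 difference -1.34, adjusted p = 0.016). Of the 6 genes and *Mx1*, 2 were called whichever array was left out, and the others were lost without Sca-1Hi replicate 3. None of 10 MHC class I genes was called, with *B2m* at a log2 difference of -0.20. Of 21 chemokines and cytokines 7 fell and 2 rose. *Il33*, a nuclear cytokine of epithelium and endothelium, read 798, 1174 and 2167 against 64.1, 70.1, 267 and 225 (a log2 difference of 3.30 ± 0.69 (SE), adjusted p = 0.0083), and *Cxcl17*, a mucosal chemokine, 1498, 911 and 515 against 115, 104, 275 and 44.0 (a log2 difference of 3.02 ± 0.61 (SE), adjusted p = 0.0068). Those that fell included *Il1b*, an inflammatory cytokine (log2 difference -3.54, adjusted p = 0.0028), and *Cxcl2*, a chemokine that attracts neutrophils (log2 difference -4.26, adjusted p = 0.0061). Without Sca-1Hi replicate 2, 6 of the 9 calls were left.

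Lipid synthesis genes were lower in Sca-1Hi, 6 of 18 with none higher and a median of -0.75. *Sqle*, squalene epoxidase, read 358, 264 and 398 in Sca-1Hi and 868, 614, 1010.4 and 1522 in Sca-1Neg (a log2 difference of -1.51 ± 0.31 (SE), adjusted p = 0.0083). *Fdps*, farnesyl diphosphate synthase, read 80.3, 64.5 and 81.05 against 218, 163, 265 and 231 (a log2 difference of -1.53 ± 0.34 (SE), adjusted p = 0.012), and *Elovl6*, a fatty acid elongase, 107, 94.9 and 171 against 477, 365, 184 and 646 (log2 difference -1.66, adjusted p = 0.026). The groups did not overlap in these 3 genes. *Fasn*, fatty acid synthase, and *Hmgcs1* were not called (-0.31 and -0.43). None of the 6 calls held whichever array was left out, and without Sca-1Hi replicate 2 no gene of the list was called. Of 11 genes of the androgen receptor list *Tmprss2*, a membrane protease, rose (3776, 3587 and 3395 against 1000.4, 750.0, 2376 and 993, log2 difference 1.64, adjusted p = 0.021), a call that held in 2 of the 7 fits without 1 array, and *Fkbp5*, another androgen target, did not pass (1086, 1267 and 1295 against 583, 389, 2987 and 613). None of 18 genes of protein folding in the endoplasmic reticulum was called, and the list was highest on Sca-1Neg replicate 3, with a mean log2 signal of 11.77 against at most 10.53 in the rest of its group. Of 17 junction genes 3 rose, led by the desmosomal plakophilin *Pkp1* (1204, 1479 and 1266 against 69.5, 72.2, 358 and 237, log2 difference 3.19, adjusted p = 0.0042), and 1 of these held whichever array was left out.

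**Figure D4:**
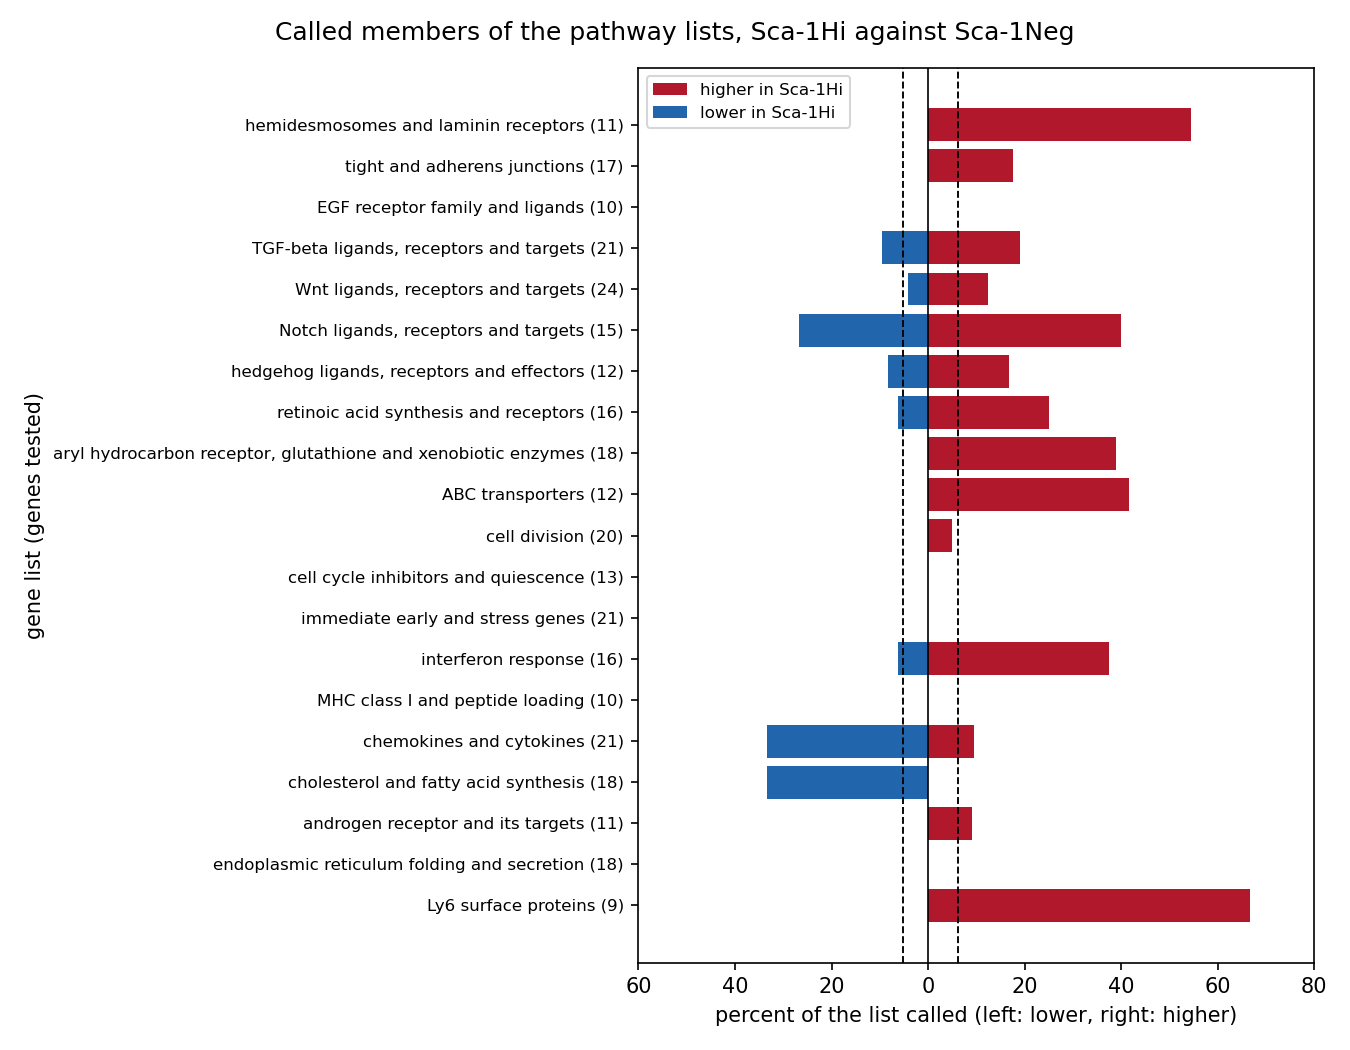
Percent of the genes tested in each pathway list (vertical axis, number tested in parentheses) that were called higher (bars to the right) or lower (bars to the left) in Sca-1Hi than in Sca-1Neg, with dashed lines at the shares over all genes, 6.13% and 5.21%. Ly6, hemidesmosome, ABC transporter and xenobiotic lists have calls in 1 direction, the Notch list in both, and the EGF, MHC class I, cell cycle inhibitor, immediate early and folding lists have none.

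The stem cell markers that the study names for these samples rose in 13 of 19 cases, with none lower. The 13 include *Ly6a*, the gene of the sorted antigen, and 8 of the 13 calls held whichever array was left out. The study drew on markers known from earlier work but listed those that rose in its subsets on these same arrays. The count is thus not independent evidence of their direction. They come from different compartments: *Krt5*, *Krt14*, *Trp63* and *Itgb4* are basal genes, while *Cd34* (1065, 1699 and 3131 against 149, 175, 179 and 195, log2 difference 3.36, adjusted p = 0.0045), *Pecam1* and *Erg* are genes of the vessel list. *Sox2*, a transcription factor of stem and basal cells, read 1167, 1711 and 1313 in Sca-1Hi and 133, 123, 464 and 197 in Sca-1Neg (a log2 difference of 2.81 ± 0.46 (SE), adjusted p = 0.0021), and *Alcam*, an adhesion molecule, 936, 1283 and 983 against 222, 179, 871 and 325 (log2 difference 1.70, adjusted p = 0.028). *Cd44*, *Cd200* and *Bcl2* were not called, at log2 differences of 0.96, 1.33 and 0.13. *Kit*, the stem cell factor receptor, was at 48.5, 35.0 and 39.5 against 104, 105, 41.8 and 164 (log2 difference -1.20, adjusted p = 0.054) and not called.

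The intermediate fraction Sca-1Lo lay close to Sca-1Hi. Between these 2 fractions 14 genes were higher (0.0815%) and 3 lower (0.0175%) in Sca-1Hi, and 4031 probe sets had an unadjusted p under 0.05. Without 1 array these 17 genes became as few as 3 (without Sca-1Hi replicate 2) or as many as 32 (without Sca-1Neg replicate 3, through the spread the groups share). Counts without 1 array were also 4 without Sca-1Hi replicate 3, 10 without Sca-1Neg replicate 1 and 11 without Sca-1Neg replicate 2. The 14 were *Dapl1*, *Nccrp1*, *Duoxa1*, *Duox1*, *Krt4*, *Prss22*, *Psapl1*, *Padi4*, *Clca2*, *Fxyd4*, *Lipm*, *S1pr5*, *Syt8* and *Syt16*. *Dapl1* read 2220.2, 2679 and 3493 in Sca-1Hi and 175, 103, 248 and 219.8 in Sca-1Lo (log2 difference 3.96 ± 0.39, adjusted p = 0.0018). *Nccrp1* was at least 13.0-fold higher, and *Krt4* read 9329, 9168 and 9487 against 2682, 1363, 3159 and 1429 (2.21 ± 0.36, adjusted p = 0.046). *Duox1*, the oxidase that forms hydrogen peroxide, and *Duoxa1*, its maturation factor, were higher by 2.79 ± 0.32 and 3.32 ± 0.41. *Prss22*, a secreted serine protease, was at 622, 723 and 710.4 against 129, 78.4, 241 and 119 (adjusted p = 0.028). *Krt4* of the proximal luminal list and *Nccrp1* of the cornified list were the members of the gene lists among the 17.

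*Esr1*, estrogen receptor alpha, was 1 of the 3 that were lower. It read 177, 79.5 and 151 in Sca-1Hi, 568, 589, 398 and 706 in Sca-1Lo and 604, 529, 1036 and 1192 in Sca-1Neg, with a log2 difference of -2.11 ± 0.35 between Sca-1Hi and Sca-1Lo (adjusted p = 0.049) and -2.62 ± 0.35 between Sca-1Hi and Sca-1Neg (adjusted p = 0.00062). The others were *Gm1673*, an uncharacterized gene, and *Igkv8-30*, an immunoglobulin light chain segment. The 17 were named because they are few, after their values were seen. Both fractions can be set against the same Sca-1Neg arrays, which these medians share. For vessel endothelium they were 3.59 in Sca-1Hi and 2.95 in Sca-1Lo, for proximal luminal genes 2.91 and 2.51, and for cornified genes 1.93 and 1.05. For smooth muscle they were -2.56 and -1.80, for all leukocytes -2.71 and -1.85, and for macrophages -2.76 and -2.68. Fewer members passed in Sca-1Lo. There 7 of 21 basal and 5 of 22 cornified genes were called higher, beside 1.69% of all genes. Called lower were 3 of 20 smooth muscle genes, 5 of 24 macrophage genes and 0 of 18 genes of all leukocytes, beside 0.827% of all genes. 

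**Figure D5:**
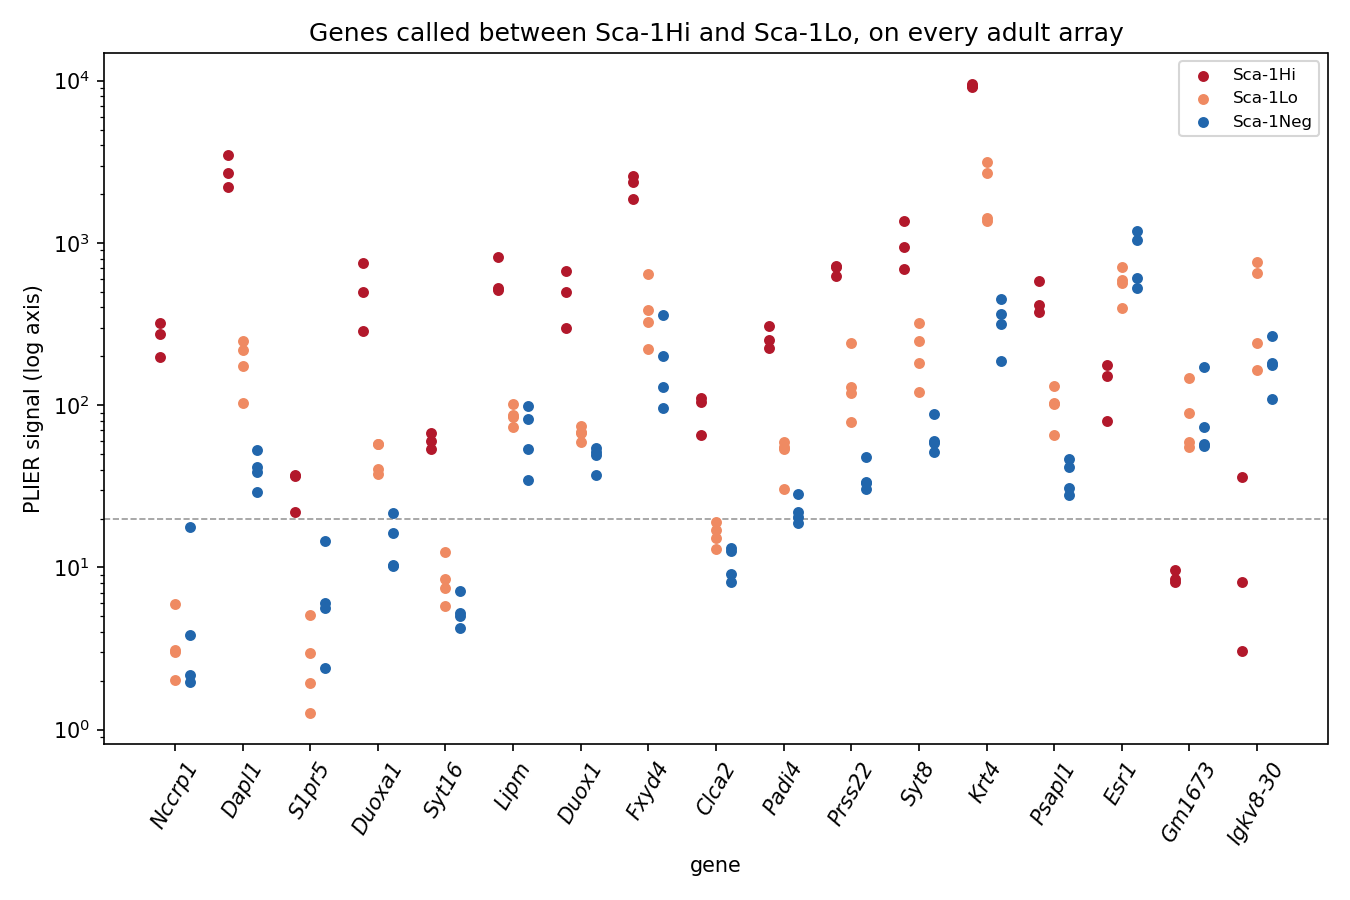
PLIER signal (vertical log axis) of the 17 genes called between Sca-1Hi and Sca-1Lo (horizontal axis, by falling log2 difference) on every adult array, with a dashed line at the signal floor of 20. The Sca-1Hi arrays lie above all Sca-1Lo arrays for the first 14 genes and below them for the last 3.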

How the data were processed

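RNA of each sorted sample (20 ng) was labelled in 2 cycles and hybridised to 1 Affymetrix mouse array. The authors deposited PLIER signal intensity values on a linear scale for 45101 probe sets, and used MAS5 for detection calls, which are not used here. The between-array normalization is not given in the sources used here. Depth does not apply to arrays, and the number of arrays limits the precision.

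Log2 values with no constant added were fitted in limma 3.58.1 (R 4.3.3) as 4 group means over all 14 arrays, for 41031 probe sets above a signal of 20 on at least 1 array. The call needed a p under 0.05 after Benjamini-Hochberg adjustment and a log2 difference over 0.81, and 17175 genes were represented by their brightest probe set, named through the platform annotation. Where all arrays or the mean of a fraction lay at or under 20, those of its signals under 20 were set to 20 and the change given as at least that fold. The procedure was tested on simulated data. Study numbers were read from column names of supplementary tables, matched to arrays by their values.

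The groups come from the sample labels. The members and the gene lists were chosen with earlier results of these data known, and the lists come from textbook knowledge apart from the stem cell markers of the study. Named genes were *Ly6a*, the genes that rose or fell most without overlap, inside and outside the marker lists, the defining markers, and the members of each list with the largest called changes. Other list members and genes were chosen after their values were seen. Alternatives covered the signal filter, the constant, scaling, the test, blocks, the variance model, the probe set rule and the removal of each array. Python 3.11.15 with pandas 2.3.3, numpy 2.4.6 and matplotlib 3.10.9 made the summaries and plots.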

Additional observations from a re-analysis of the deposited data

Results flagged for a closer look

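In each of 178 named genes the 4 Sca-1Neg arrays were tested for 1 array far from the others, by the gap to the nearest array over the whole range, both of log2 signals (Dixon's test at the 95% level). This picked out 4 genes, a smaller share than the about 1 in 20 that chance alone picks. *Abcc4*, an organic anion exporter, read 603 in Sca-1Neg replicate 3 and 192 to 199 on the other 3 arrays, a ratio of 0.968. *Col1a2*, a chain of collagen I, read 12600 in Sca-1Neg replicate 4 and 2970 to 3310 on the others, a ratio of 0.924. *Notch3*, the receptor of pericytes and smooth muscle, read 7740 in Sca-1Neg replicate 4 and 1630 to 2110 on the others, a ratio of 0.836. *Notch4*, the endothelial receptor, read 93.2 in Sca-1Neg replicate 4 and 50.03 to 53.8 on the others, a ratio of 0.884. On that same array the smooth muscle list had its highest mean log2 signal, 12.53, and the part of this in the values was not tested.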

How the results depend on the processing

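The counts of called genes moved more with the test than with the scaling. The unpaired t-test of the methods was run here over 41031 probe sets, without the study's earlier filters on variation and significance. Its counts are therefore not those of the study's own procedure. At an adjusted p under 0.05 and over the fold minimum, it called 139 genes higher and 7 lower. For this test 9054 probe sets had an unadjusted p under 0.05. It called 6 epithelial, 20 endothelial, 0 stromal and 0 blood-cell genes higher, and 0 epithelial, 0 endothelial, 0 stromal and 0 blood-cell genes lower. It called 0 genes between Sca-1Hi and Sca-1Lo, with 4416 probe sets at an unadjusted p under 0.05. A fit of the Sca-1Hi and Sca-1Neg arrays alone gave 460 lower genes, 0 endothelial, 9 stromal and 20 blood-cell genes lower, and a separate fit of the Sca-1Hi and Sca-1Lo arrays alone gave 3 genes between them. A test against the fold minimum itself gave 253 higher and 201 lower genes, 20 epithelial, 0 stromal and 0 blood-cell genes higher, 0 endothelial, 3 stromal and 14 blood-cell genes lower, and 2 genes between Sca-1Hi and Sca-1Lo. Array weights, whose estimation stopped before its convergence tolerance was reached, gave 2881 higher and 1829 lower genes, 8 stromal genes higher, 12 epithelial and 70 blood-cell genes lower, and 281 genes between Sca-1Hi and Sca-1Lo. The cause of these changes was not tested.

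Within the arrays of study numbers 3 to 5 there were 445 higher and 253 lower genes, 22 epithelial and 0 blood-cell genes higher, 0 endothelial, 1 stromal and 6 blood-cell genes lower, and 0 genes by limma between Sca-1Hi and Sca-1Lo (3901 probe sets at an unadjusted p under 0.05). Within numbers 1 and 2 there were 2 stromal genes higher, 6 epithelial and 29 stromal genes lower, and 5 genes between Sca-1Hi and Sca-1Lo. Both fits have fewer arrays. With the low and the high set of study numbers as a block of 2 levels there were 7 epithelial genes lower and 2 stromal genes higher. Quantile normalization gave 1375 lower genes and 31 genes between Sca-1Hi and Sca-1Lo. It moved the median of all genes from 0.03 to -0.08 on the log2 scale and the share of calls that were higher from 54.1% to 46.5%. Centring on the 75th percentile gave 2 stromal genes higher. With 16 added before log2, 5 epithelial genes were lower and 31 genes were called between Sca-1Hi and Sca-1Lo. Taking the probe set with the smallest p gave 1666 higher genes, 6 epithelial genes lower, 2 stromal and 2 blood-cell genes higher, and turned *Fzd3* from -1.20 to 1.49, since a different probe set then stands for the gene. The mean of all probe sets gave 0 endothelial genes lower.

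Without 1 array the ranges were 485 to 1385 genes higher and 300 to 1117 lower, 23 to 43 epithelial genes higher and 3 to 5 lower, 35 to 39 endothelial genes higher and 0 to 1 lower, 0 to 2 stromal genes higher and 4 to 18 lower, 0 to 2 blood-cell genes higher and 18 to 55 lower, and 3 to 32 genes between Sca-1Hi and Sca-1Lo. The deviations of Sca-1Hi and Sca-1Neg arrays of the same replicate number in the labels correlated at 0.15, -0.26 and 0.06. So few arrays cannot show whether the samples were paired, and pairing by study number was not tested. With the replicate number as a block there were 1210 higher and 814 lower genes, 5 epithelial genes lower and 2 stromal genes higher. Of the 146 named genes that were called, *Fzd3* was the only one to change sign under any alternative run. Many lost their call without a change of sign. The t-test lost 123 of these calls and the test against the fold minimum 72. Within study numbers 3 to 5, 77 were lost, and without Sca-1Hi replicate 2, 53. Signals near the floor of 20 limit the fold changes of dim genes to bounds.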
